A study of Ovis aries with 16 samples.

Results

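Genes that cut, protect or crosslink the extracellular matrix were followed through 16 RNA sequencing libraries of sheep fat. The 10 genes were chosen by name from the 28524 genes counted and comprise 4 matrix metalloproteinases (MMP2, MMP9, MMP14 and MMP19), 3 tissue inhibitors of metalloproteinases (TIMP1, TIMP2 and TIMP3) and 3 lysyl oxidases (LOX, LOXL1 and LOXL2). The fat came from female sheep aged 21 months. Their mothers had been injected daily under the skin with bisphenol A (BPA) in corn oil at 0.5 mg/kg/day, or with corn oil alone (control). Dosing began on day 30 of pregnancy and ended on day 90, term being about 147 days. BPA is used to make polycarbonate plastics and binds oestrogen receptors. The animals themselves were not dosed, and all of them, control and BPA, were kept on a maintenance diet meant to prevent obesity and had their oestrous cycles synchronised with prostaglandin F2α. Fat was taken 24 hours after the last injection of prostaglandin. Visceral fat was mesenteric, collected around the rumen at its ventral sac, and subcutaneous fat was sternal. There were 4 libraries in each of 4 groups: subcutaneous control (902, 924, 928 and 931), subcutaneous BPA (918, 922, 941 and 977), visceral control (902, 908, 924 and 928) and visceral BPA (910, 918, 977 and 984). The numbers open the sample titles, and 5 of them occur in both depots.

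Fat is held together by a mesh of collagens, elastin and fibronectin that has to be cut and rebuilt when fat cells enlarge. Metalloproteinases are zinc-dependent enzymes that cut this mesh, mostly after their own propeptide has been removed. MMP14 sits in the cell membrane, cleaves fibrillar collagen and activates the secreted gelatinase MMP2, a step in which TIMP2 serves as a bridge between both enzymes at low levels and as an inhibitor at high ones. Lysyl oxidases are copper enzymes that oxidise lysines of collagen and elastin, from which the covalent crosslinks form that stiffen the mesh.

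Library totals ran from 4.74 to 6.22 M counts in subcutaneous control fat, from 3.05 to 4.83 M in subcutaneous BPA fat, from 11.0 to 13.1 M in visceral control fat and from 6.77 to 14.3 M in visceral BPA fat. Depth therefore ran with the depot, and their parts in a depot difference cannot be told apart. The tissue label was borne out by the 7 adipocyte markers, all of which had counts in every group, with a summed level of 9898 to 27750 CPM (counts per M of the TMM-scaled library total). Mesothelial markers summed to 30.3 to 279 CPM in visceral and 1.85 to 9.05 CPM in subcutaneous fat. In an earlier analysis of these data, subcutaneous controls 902 and 924 and visceral BPA libraries 918 and 977 stood apart. Values without them are given where a result of BPA against control rests on them. The other comparisons were run without each library singly, but not without these libraries together. No label says that the libraries of a group came from separate animals, so the p-values measure the spread between libraries. In bulk tissue, fewer cells of a type and less RNA per cell cannot be told apart.

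The gene models behind the counts set what a level means. In the deposited table, MMP2 lies at 25235924 to 25261940 on chromosome 14 (plus strand, 13 exons), MMP19 at 175328456 to 175334324 on chromosome 3 (plus strand) and LOXL1 at 32565348 to 32589937 on chromosome 18 (minus strand, 7 exons). The genome build behind these positions is not named in the sources used here, and chromosomes were recognised by the genes each sequence carries. The counted lengths of MMP2 (1986 bases), MMP9 (2358), MMP14 (1749), MMP19 (2289), TIMP2 (663) and TIMP3 (636) are multiples of 3, whereas those of LOX (5117) and LOXL1 (2455) are not. Models made of coding sequence alone have such lengths, but a multiple of 3 does not by itself show one. For MMP19, 19 exon entries were merged to 9. LOXL2 is represented by 1033 bases in 4 exons. The span of TIMP1 overlaps those of ARAF and SYN1, and the span of TIMP2 overlaps that of CEP295NL, with 0 exon bases shared.

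Levels per kilobase of counted length (RPKM) placed the inhibitors TIMP2 and TIMP3 at or near the top of every group. In subcutaneous control fat, TIMP2 averaged 864 ± 219 RPKM, TIMP3 521 ± 224, MMP2 499.8 ± 276 and MMP14 268 ± 116 (SD, n = 4), and each of these overlapped its neighbour in the order. LOX followed at 41.9 ± 12.2 RPKM, below every library of MMP14, and overlapped TIMP1 at 32.2 ± 9.38. LOXL1 stood at 12.2 ± 4.13 RPKM, LOXL2 at 7.04 ± 0.790 and MMP19 at 3.88 ± 2.41, the last overlapping LOXL2. MMP9 was lowest in all 4 groups, between 0.0544 and 0.632 RPKM on average.

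The order differed between depots at the place of MMP2. Its mean was above that of MMP14 in both subcutaneous groups and below it in both visceral groups. In visceral control fat TIMP2 averaged 1169 ± 238 RPKM and TIMP3 515 ± 70.3, against 198 ± 40.2 for MMP14 and 123 ± 32.2 for MMP2 (SD, n = 4). Of the summed RPKM of the 4 metalloproteinases, MMP2 made up 58.8 to 69.7% in subcutaneous controls and 30.8 to 43.4% in visceral controls. MMP14 made up 30.0 to 40.5% and 54.3 to 68.0% in the same groups. MMP9 and MMP19 together were a small remainder, with MMP19 at no more than 4.07% of the family in any library.

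**Figure D1:**
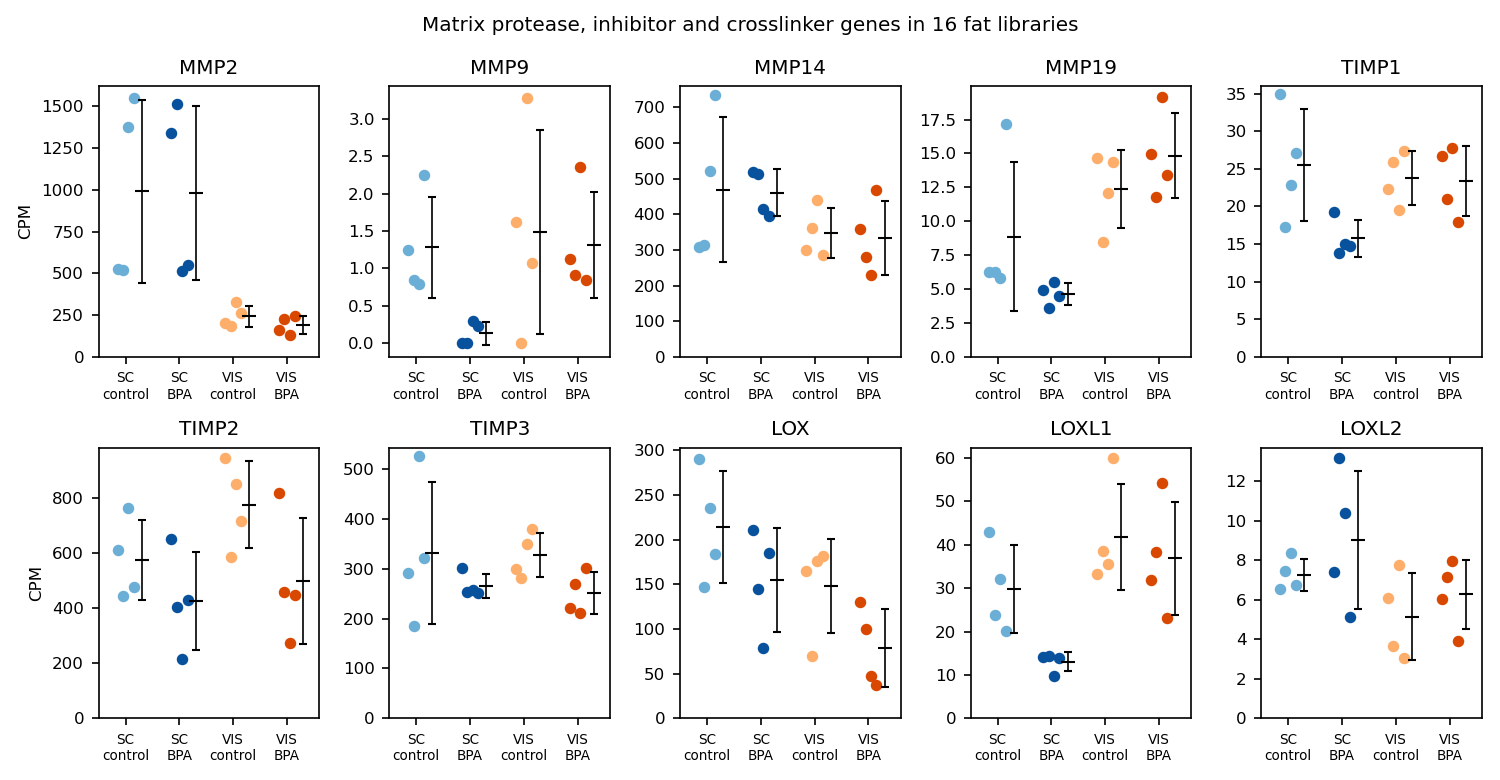
Counts per M (CPM, vertical axes from 0 for all genes but MMP9, whose error bar reaches below 0) of the 10 genes in each library of subcutaneous (SC) and visceral (VIS) fat; points are libraries, and the black bar to the right of each group is its mean ± SD (n = 4). MMP2 lies between 517 and 1551 CPM in subcutaneous and between 128 and 327 CPM in visceral libraries, while MMP19 and LOXL1 are lowest in the subcutaneous BPA group.

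Depots were compared first within the control animals, on 8 libraries. MMP2, the gelatinase of type IV and denatured collagen that fibroblast-like cells secrete, was lower in visceral fat. Its subcutaneous control levels were 526 CPM in library 902, 517 in 924, 1376 in 928 and 1551 in 931, and its visceral levels were 201 in 902, 187 in 908, 327 in 924 and 259.8 in 928. The groups did not overlap, although the subcutaneous libraries themselves were spread widely, with 902 and 924 far below 928 and 931. The fitted log2 fold change, visceral against subcutaneous, was −2.04 ± 0.37 (SE), a 4.10-fold lower level (edgeR quasi-likelihood test, adjusted p = 0.00655).

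MMP2 was the only one of the 10 members called in controls, at an adjusted p under 0.05. Of all 14456 genes tested, 7.17% were called higher and 6.16% lower in visceral fat, and 1 member lower out of 10 is near that background. Groups without overlap occurred for 1 of the 10 members and for 19.9% of all genes tested. An unadjusted p under 0.05 was reached by 1 of the 10 members and by 29.5% of all genes. The median log2 difference was −0.07 over the members and −0.01 over all genes tested.

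The same comparison in BPA animals called 3 of 9 tested members. MMP2 stood at 1340 CPM in subcutaneous library 918, 1517 in 922, 517 in 941 and 550.2 in 977, and at 160.2 in visceral library 910, 225 in 918, 128 in 977 and 243 in 984. Again no visceral library reached a subcutaneous one. The log2 fold change was −2.39 ± 0.38 (SE), a 5.25-fold lower level (edgeR, adjusted p = 0.0069).

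MMP19, a secreted metalloproteinase that cuts basement membrane proteins, was higher in visceral BPA fat. Its levels were 4.93, 3.58, 5.49 and 4.48 CPM in subcutaneous libraries 918, 922, 941 and 977, and 14.9, 11.8, 19.2 and 13.4 CPM in visceral libraries 910, 918, 977 and 984. The lowest visceral value was above the highest subcutaneous one. The log2 fold change was 1.67 ± 0.27 (SE), a 3.18-fold higher level (edgeR, adjusted p = 0.00727).

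LOXL1, the lysyl oxidase best known for its part in elastic fibre upkeep in mice, was also higher in visceral BPA fat. It stood at 14.2, 14.3, 9.82 and 13.9 CPM in subcutaneous libraries 918, 922, 941 and 977 and at 31.9, 38.3, 54.1 and 23.1 CPM in visceral libraries 910, 918, 977 and 984. The visceral libraries spread more widely than the subcutaneous ones, and the groups did not overlap. The log2 fold change was 1.48 ± 0.27 (SE), a 2.79-fold higher level (edgeR, adjusted p = 0.0121). In controls LOXL1 gave 0.48 ± 0.25 (adjusted p = 0.23), and the groups overlapped.

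Among all 13782 genes tested in BPA animals, 5.13% were called higher and 3.94% lower in visceral fat, and 18.5% had groups without overlap. Against this, 2 of the 9 tested members were called higher, 1 was called lower, and the same 3 had no overlap. An unadjusted p under 0.05 was reached by 6 of the 9 members, the 3 called and LOX, MMP14 and TIMP1, and by 27.0% of all genes. The median over the members was −0.10 on the log2 scale, beside 0.02 over all genes tested. In every alternative run on the BPA depot comparison, MMP2, MMP19 and LOXL1 stayed called. Their log2 fold changes ranged from −2.60 to −2.10 for MMP2, from 1.52 to 1.77 for MMP19 and from 1.22 to 1.71 for LOXL1, the largest adjusted p being 0.021, 0.0276 and 0.0405.

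**Figure D2:**
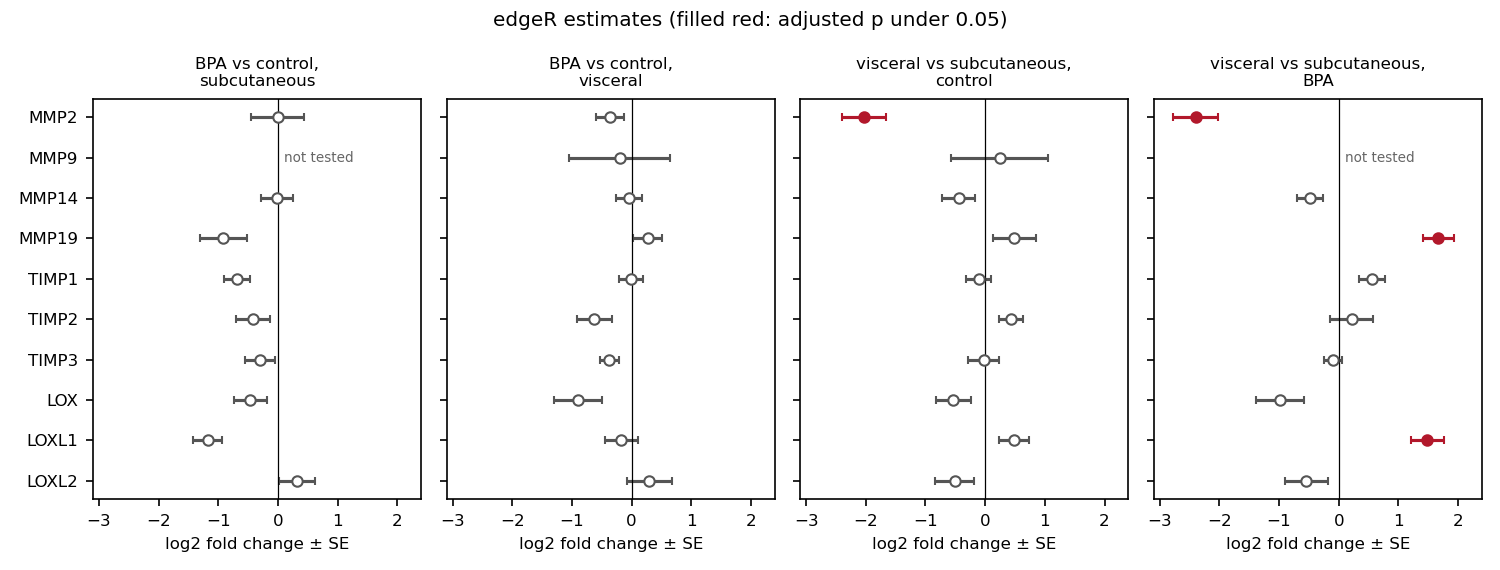
Log2 fold change ± SE (horizontal axes) of each gene from the edgeR fit in 4 comparisons of 4 against 4 libraries; red filled points had an adjusted p under 0.05 and open points did not. MMP2 is called lower in visceral fat in control and BPA animals, MMP19 and LOXL1 are called higher in BPA animals, no member is called for BPA against control in either depot, and MMP9 was not tested in 2 comparisons.

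For MMP19 in controls, 1 library decided the call. Subcutaneous controls 902, 924 and 928 lay at 6.24, 6.27 and 5.83 CPM, whereas 931 lay at 17.15, above the 4 visceral controls, which held 14.6, 8.45, 12.1 and 14.4 CPM in 902, 908, 924 and 928. With all libraries the log2 fold change was 0.49 ± 0.36 (SE; edgeR, adjusted p = 0.386). Without subcutaneous control 931 it was 1.02 (edgeR, adjusted p = 0.0323).

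Numbers shared between depots allowed a comparison within a number. Taking the title number as a replicate block, MMP19 was called in controls as well (log2 fold change 1.15; edgeR, adjusted p = 0.00808), which made 2 members called. This control depot estimate rests on numbers 902, 924 and 928 only. Subcutaneous control 931 has no visceral library of its number and adds nothing to it. The blocked call of MMP19 is therefore not separate from the call made without 931. In BPA animals the block called 5 of 9 members, adding MMP14 (−0.82, adjusted p = 0.0298) and LOX (−1.50, adjusted p = 9.88e-04). This BPA depot estimate rests on numbers 918 and 977 only. Of all 14456 genes tested in controls the block called 2631, and of all 13782 in BPA animals 892, against 1928 and 1250 without it. Across the 5 shared numbers, MMP2 was lower in visceral fat in 5 of 5, by 0.66 to 2.58 on the log2 scale, and MMP19 was higher in 5 of 5, by 0.92 to 2.04. MMP9 was also higher in 5 of 5.

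MMP14 and LOX were lower in visceral fat in 4 of the 5 numbers, and LOXL1 was higher in 4 of 5. The exceptions were number 924 for MMP14 and LOX and number 902 for LOXL1, both controls. By the correlations between libraries of 1 number, the 3 control numbers were taken as pairs. Of the 2 BPA numbers, 918 matched its own number best in both depots (r = 0.202), but 977 did not (r = −0.077). The BPA numbers were not taken as pairs, so the blocked BPA values rest on shared numbers alone.

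**Figure D3:**
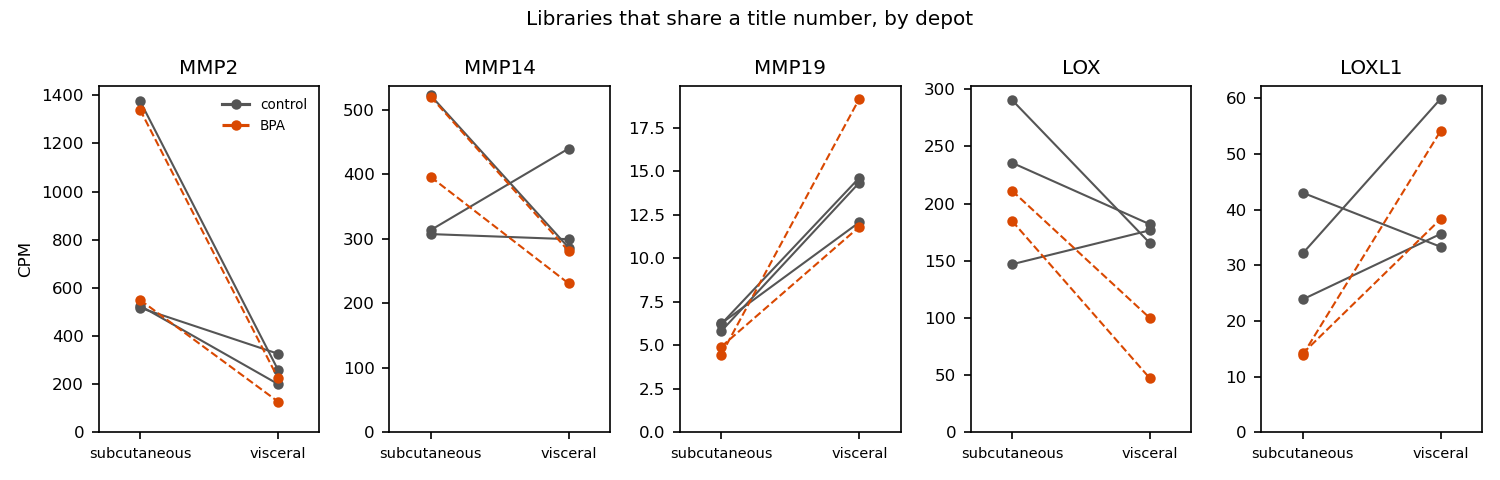
CPM (vertical axes from 0) of 5 genes in the subcutaneous and the visceral library that share a title number; each line is 1 number, grey solid lines are the 3 control numbers (902, 924 and 928) and orange dashed lines the 2 BPA numbers (918 and 977). All 5 lines fall for MMP2 and all 5 rise for MMP19, whereas 1 line runs against the others for MMP14, LOX and LOXL1.

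The remaining members did not pass the test between depots. MMP14 ranged from 307 to 735 CPM in subcutaneous and from 286 to 440 CPM in visceral controls (log2 fold change −0.45 ± 0.27 (SE); edgeR, adjusted p = 0.296). LOX, the enzyme that gave the family its name, ranged from 147 to 290.5 CPM in subcutaneous and from 69.9 to 182 CPM in visceral controls (−0.53 ± 0.29, adjusted p = 0.242). In BPA animals LOX ranged from 78.2 to 211 CPM in subcutaneous and from 37.8 to 131 CPM in visceral fat (−0.98 ± 0.40, adjusted p = 0.146). These groups overlapped in every case.

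None of the 3 inhibitors was called between depots, though TIMP1 had an unadjusted p of 0.0257 in BPA animals. TIMP2 ranged from 445 to 762 CPM in subcutaneous and from 586 to 946 CPM in visceral controls (log2 fold change 0.43 ± 0.20 (SE); edgeR, adjusted p = 0.185). TIMP3, which unlike the other inhibitors binds to the matrix itself, gave −0.02 ± 0.26 in controls and −0.10 ± 0.16 in BPA animals (adjusted p = 0.967 and 0.736). TIMP1, the secreted inhibitor that pairs with pro-MMP9, gave −0.11 ± 0.21 in controls and 0.55 ± 0.22 in BPA animals (adjusted p = 0.766 and 0.128). LOXL2 gave −0.51 ± 0.32 and −0.54 ± 0.36 (adjusted p = 0.312 and 0.362).

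Ratios within a library do not depend on how libraries were scaled. MMP2 over TIMP2, as a ratio of RPKM, was 0.288, 0.389, 0.603 and 1.09 in subcutaneous controls 902, 924, 928 and 931 and 0.0708, 0.106, 0.128 and 0.121 in visceral controls 902, 908, 924 and 928. It was 0.687, 1.26, 0.797 and 0.428 in subcutaneous BPA libraries 918, 922, 941 and 977 and 0.0655, 0.164, 0.157 and 0.181 in visceral BPA libraries 910, 918, 977 and 984. Every subcutaneous library was above every visceral one, and the treatments overlapped within each depot. No test was made on the ratios.

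MMP2 over its activator MMP14 was likewise 1.10 to 2.601 in subcutaneous and 0.394 to 0.800 in visceral libraries. LOX over LOXL1 was 2.95 to 4.36 in subcutaneous controls, 3.82 to 7.15 in subcutaneous BPA, 0.871 to 2.38 in visceral control and 0.418 to 1.97 in visceral BPA libraries. LOX against its substrate gene COL1A1, the main chain of type I collagen, had another order: 0.114 to 0.163 in subcutaneous controls, 0.137 to 0.295 in subcutaneous BPA, 0.256 to 0.404 in visceral control and 0.0224 to 0.280 in visceral BPA libraries. The summed RPKM of the 4 metalloproteinases over that of the 3 inhibitors was 0.312 to 1.04 in subcutaneous and 0.145 to 0.338 in visceral libraries, so that the depots overlapped at 0.312 to 0.338.

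**Figure D4:**
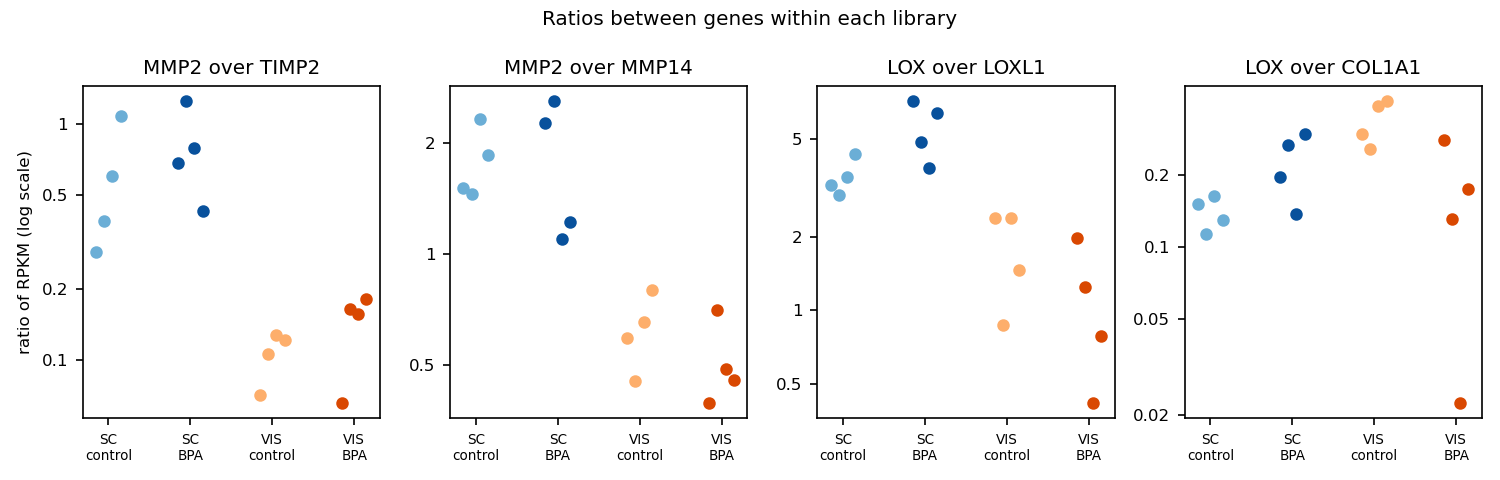
Ratios of RPKM between 2 genes within each library (vertical axes on a log scale), with points for libraries in subcutaneous (SC) and visceral (VIS) fat. MMP2 over TIMP2 is 0.288 or more in subcutaneous and 0.181 or less in visceral libraries, and LOX over LOXL1 is 2.95 or more in subcutaneous and 2.38 or less in visceral libraries.

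Prenatal BPA was compared with control in each depot. In subcutaneous fat 0 of the 9 tested members were called by edgeR, where 96 of 13535 genes, 0.709%, were called. LOXL1 came nearest. It stood at 43.0, 23.9, 32.1 and 20.2 CPM in controls 902, 924, 928 and 931 and at 14.2, 14.3, 9.82 and 13.9 CPM in BPA libraries 918, 922, 941 and 977. Every BPA library was below every control library.

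The log2 fold change of LOXL1 was −1.18 ± 0.24 (SE), with an adjusted p of 0.0576 and an unadjusted p of 4.95e-04 (edgeR). Its call depended on the settings: the adjusted p was 0.00194 with DESeq2, 0.0289 with no filter on low counts and 0.0313 without control 931. It was 0.251 without controls 902 and 924 (log2 fold change −0.98). With the library total as a covariate the estimate was −0.56 (adjusted p = 0.671). The BPA libraries held 3.05 to 4.83 M counts and the controls 4.74 to 6.22 M.

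MMP19 and TIMP1 had lower estimates as well, with unadjusted p under 0.05 only. MMP19 gave −0.92 ± 0.39 (SE; edgeR, adjusted p = 0.324). All 4 BPA libraries of MMP19 were below all 4 controls, by a narrow margin of 5.49 against 5.83 CPM, and without control 931 the estimate was −0.40 (adjusted p = 0.592). TIMP1 stood at 34.9, 17.3, 22.8 and 27.2 CPM in controls 902, 924, 928 and 931 and at 19.3, 13.9, 15.01 and 14.8 CPM in BPA libraries 918, 922, 941 and 977. Its groups overlapped in 1 library of each, and the estimate was −0.68 ± 0.22 (adjusted p = 0.206).

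Groups without overlap were found for 2 of the 9 tested members, LOXL1 and MMP19, against 7.44% of all genes tested. An unadjusted p under 0.05 was reached by 3 of 9 members and by 14.2% of all genes. Estimates were below 0 for 8 of the 9, with a median of −0.43 on the log2 scale beside −0.01 over all genes tested. The exception was LOXL2, at 0.32 ± 0.30 (SE; edgeR, adjusted p = 0.678).

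MMP9, the gelatinase stored in neutrophils and made by macrophages, had too few counts to be tested here. It had 8, 5, 5 and 11 counts in subcutaneous controls 902, 924, 928 and 931, and 0, 0, 1 and 1 counts in subcutaneous BPA libraries 918, 922, 941 and 977. All BPA values were thus under the 3 counts that a value of 0 allows. An exact two-sided permutation test of CPM gave p = 0.0286, the smallest that the 70 orders of 4 against 4 libraries can give. Every gene without overlap gives this p, and 7.44% of all genes tested had no overlap in this comparison. The pooled ratio of control to BPA was 10.6 (exact 95% interval 2.69 to 91.9, for counting error only).

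Where other settings kept MMP9, its adjusted p was 0.165 with no filter, 0.266 in a fit of all 16 libraries and 0.633 with limma voom. Visceral controls 902, 908, 924 and 928 had 18, 0, 38 and 13 counts, and visceral BPA libraries 910, 918, 977 and 984 had 10, 8, 16 and 11. MMP9 in BPA animals was higher in visceral fat in every library, with the same permutation p of 0.0286, and again no edgeR test at the main filter. Of all genes tested between depots in BPA animals, 18.5% had no overlap and so give the same p. Other settings did not call the depot difference of MMP9. The adjusted p was 0.0777 with no filter, 0.0645 in a fit of all 16 libraries, 0.0557 with DESeq2 and 0.176 with limma voom. The 2 comparisons share the subcutaneous BPA libraries, as do those of LOXL1 and MMP19.

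Markers of blood-derived cells moved with these values. All 9 macrophage and monocyte markers in the table had lower estimates in subcutaneous BPA fat, and 1 of them, TYROBP, was called, beside 0.709% of all genes. Their summed level was 326 to 519 CPM in BPA libraries and 615 to 857 CPM in controls. Neutrophil markers summed to 0.671 to 2.91 against 3.28 to 8.13 CPM, with S100A8 and CXCR1 at 0 in all BPA libraries and CXCR1 at 0 in all controls. These sums are near the floor, 0.671 CPM in BPA library 922 being 3 counts. Of the 7 neutrophil markers, 0 had enough counts to be tested. Lymphocyte markers summed to 43.8 to 104 against 85.2 to 238 CPM, so that these groups overlapped. The 8 stromal progenitor markers had a median log2 difference of −0.65, with 1 of 8, THY1, called. Without controls 902 and 924 neither marker was called (edgeR, adjusted p = 0.264 for TYROBP and 0.252 for THY1). The other lists were mixed in this comparison. Estimates were higher for 7 of 7 smooth muscle and pericyte markers and for 6 of 7 adipocyte markers, with 0 called. Endothelial markers had lower estimates for 5 of 6, with a median log2 difference of −0.098 and 0 called. Of 7 mesothelial markers 1 was tested, with a lower estimate, and 0 epithelial markers were tested. Mesothelial markers summed to 1.85 to 5.15 CPM in BPA and 4.095 to 9.05 CPM in control libraries. Epithelial markers summed to 0.616 to 1.73 CPM and 0.613 to 8.265 CPM. Both lists overlapped between the groups. The part of these cell types in the values of LOXL1, MMP19, TIMP1 and MMP9 was not tested.

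In visceral fat 0 of 10 tested members were called by edgeR for BPA, where 0% of 14774 genes were called, and DESeq2 called 0 members and 5 genes. An unadjusted p under 0.05 was reached by 2 of 10 members, TIMP3 and LOX, and by 7.47% of all genes. TIMP3 was 299.7, 282, 349 and 380 CPM in controls 902, 908, 924 and 928 and 221, 269.9, 212 and 301 CPM in BPA libraries 910, 918, 977 and 984 (log2 fold change −0.37 ± 0.16 (SE); edgeR, adjusted p = 0.658). LOX was 165, 69.9, 177 and 182 CPM in the controls and 131, 99.8, 47.2 and 37.8 CPM in the BPA libraries (−0.90 ± 0.41, adjusted p = 0.658). For both genes the groups overlapped, and 0 of 10 members were free of overlap where 4.09% of all genes were.

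TIMP2 gave −0.63 ± 0.29 (SE; edgeR, adjusted p = 0.658) in visceral fat, and 8 of 10 members had estimates below 0, with a median of −0.19 beside 0.00 over all genes. LOXL1, the tested member with the lowest estimate in subcutaneous fat, gave −0.17 ± 0.28 in visceral fat (adjusted p = 0.86). MMP2 gave −0.01 ± 0.45 in subcutaneous and −0.36 ± 0.24 in visceral fat (adjusted p = 0.997 and 0.691), and MMP14 gave −0.01 ± 0.26 and −0.04 ± 0.22 (adjusted p = 0.988 and 0.96).

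Whether BPA effects differed between depots was tested on all 16 libraries. None of the 10 members was called by edgeR, where 0% of 14793 genes were called, and DESeq2 called 0 members and 12 genes. An unadjusted p under 0.05 was reached by 4 of 10 members and by 6.20% of all genes. The BPA effect in visceral fat minus that in subcutaneous fat was 1.01 ± 0.40 (SE) on the log2 scale for LOXL1 (edgeR, adjusted p = 0.725) and 1.19 ± 0.46 for MMP19 (adjusted p = 0.725). It was 0.67 ± 0.30 for TIMP1 (adjusted p = 0.783) and 3.04 ± 1.44 for MMP9 (adjusted p = 0.799). MMP9, which is among the 4 members, had only 0 to 1 counts in the subcutaneous BPA libraries. It passed the filter here through libraries of the other groups, so its estimate rests on a group at the floor. Without subcutaneous control 931 the value for MMP19 was 0.67 (adjusted p = 0.8).

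The wider matrix system was described by 7 lists of related genes. Their counts stand beside the 7.17% of all genes called higher and 6.16% called lower in visceral controls, and the 5.13% and 3.94% in BPA animals, and no list was tested against these shares. Of 18 other metalloproteinases, 15 were in the table and 7 were tested in the control depot comparison, of which 1 was called higher and 2 lower in visceral fat. In BPA animals 0 of 8 were called higher and 1 lower. MMP27 was called lower in both (edgeR, adjusted p = 0.00131 in controls and 0.00925 in BPA animals). Its subcutaneous libraries held 19 to 43 counts in controls and 8 to 10 in BPA animals. Visceral libraries held 0 to 4 counts in controls and 0 to 2 in BPA animals. MMP27 thus passed the filter through its subcutaneous libraries alone, so that a call could only be lower in visceral fat. MMP28, the secreted metalloproteinase epilysin, was 1.42-fold higher in visceral controls (log2 fold change 0.51 ± 0.14 (SE), adjusted p = 0.0368). MMP24, a membrane-bound metalloproteinase, was 2.54-fold lower (−1.34 ± 0.39, adjusted p = 0.0428).

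Of 25 ADAM and ADAMTS proteases tested in controls, 1 was called higher and 3 lower in visceral fat. ADAMTS19 was lower in both treatments, with 18.1 ± 7.30 CPM in subcutaneous and 3.64 ± 1.40 CPM in visceral controls (SD, n = 4; log2 fold change −2.34 ± 0.37 (SE); edgeR, adjusted p = 0.00345) and a log2 fold change of −2.17 ± 0.47 in BPA animals (adjusted p = 0.0202). ADAMTS17 was called higher in controls (0.92 ± 0.26, adjusted p = 0.0368), and ADAM8 and ADAM33 lower (−2.41 ± 0.71 and −0.95 ± 0.28, adjusted p = 0.046 and 0.049). In BPA animals 0 of 24 were called higher and 2 lower, the other being ADAMTS7 (−0.86 ± 0.24, adjusted p = 0.0475).

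Of 11 genes of the plasminogen system and the cathepsins, CTSZ, a lysosomal carboxypeptidase, was the only one called. It was higher in visceral fat in controls (log2 fold change 0.71 ± 0.20 (SE); edgeR, adjusted p = 0.0395) and in BPA animals (1.01 ± 0.19, adjusted p = 0.0124). Of 5 other inhibitors, RECK, a membrane-anchored inhibitor of metalloproteinases, was called lower in visceral controls (−0.47 ± 0.12, adjusted p = 0.0324), and 0 of 5 were called in BPA animals.

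Beside the 3 lysyl oxidases, 15 other crosslinkers and collagen modifiers were tested, among them the enzymes that hydroxylate collagen before it is crosslinked. Of these, 5 were called higher and 1 lower in visceral controls (7.17% and 6.16% of all genes), and 5 higher and 0 lower in BPA animals (5.13% and 3.94%). PLOD2, the lysyl hydroxylase of collagen telopeptides, was 3.29-fold higher in controls (log2 fold change 1.72 ± 0.27 (SE); edgeR, adjusted p = 0.00329) and 2.80-fold higher in BPA animals (1.48 ± 0.30, adjusted p = 0.0166). P3H2, a prolyl 3-hydroxylase, was 3.201-fold and 3.79-fold higher (adjusted p = 0.00756 and 0.00853).

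PLOD3 was called higher in controls (log2 fold change 0.60 ± 0.11 (SE); edgeR, adjusted p = 0.00764), and P3H3 lower (−0.58 ± 0.13, adjusted p = 0.0174). In BPA animals the lysyl hydroxylase PLOD1 (0.88 ± 0.17, adjusted p = 0.0142) and SERPINH1, the collagen chaperone HSP47 (1.28 ± 0.24, adjusted p = 0.0121), were called higher. Chosen after their values were seen, to complete these counts, SERPINH1 was also called higher in controls (0.73 ± 0.21, adjusted p = 0.0433), and the transglutaminase TGM2 was called higher in controls (1.10 ± 0.30, adjusted p = 0.0332) and in BPA animals (1.16 ± 0.26, adjusted p = 0.0215). Of the procollagen processing genes, 1 of 6 was called higher and 1 lower in controls, namely BMP1 (0.63 ± 0.16, adjusted p = 0.0247) and PCOLCE (−0.90 ± 0.21, adjusted p = 0.0176). In BPA animals PCOLCE2 was the 1 of 5 called higher (1.04 ± 0.16, adjusted p = 0.00663).

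The substrates of these enzymes were lower in visceral controls for 4 of 11 genes and higher for 0, where 6.16% of all genes were lower and 7.17% higher. COL1A2 and COL1A1 were 3.74-fold and 3.52-fold lower (edgeR, adjusted p = 6.40e-04 and 8.56e-04), COL6A3 2.46-fold lower (adjusted p = 0.0022) and COL3A1 2.04-fold lower (adjusted p = 0.0282). In BPA animals COL6A3 was the only substrate called, 2.32-fold lower in visceral fat (adjusted p = 0.0183). For BPA against control, FN1, the fibronectin gene, was the only gene of the 7 lists that was called, in subcutaneous fat. It averaged 178 ± 49.6 CPM in BPA and 567 ± 241 CPM in control libraries (SD, n = 4), a log2 fold change of −1.67 ± 0.31 (SE; edgeR, adjusted p = 0.0396). Without controls 902 and 924, the highest in FN1, it was −1.001 (adjusted p = 0.247), and 0 of all genes were called.

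The members also varied among libraries of a group. Across the 16 libraries, with each group centred on its mean log2 CPM, the closest members were LOX and TIMP2 (Pearson r = 0.789), MMP2 and MMP14 (r = 0.775) and MMP2 and TIMP3 (r = 0.645), and the most opposed were MMP14 and LOXL1 (r = −0.602). These correlations are descriptions over 16 libraries that share depots, depth differences and, in part, title numbers. Among 10101 genes searched, those nearest to MMP2 were HTRA1 (r = 0.883), ABHD4 (r = 0.862) and GGH (r = 0.859). HTRA1 encodes a secreted serine protease.

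The genes nearest to LOX were NTN4 (r = 0.950), FXYD1 (r = 0.935) and GALNT16 (r = 0.914), and those nearest to LOXL1 were DAAM2 (r = 0.889), TMPO (r = 0.842) and FKBP10 (r = 0.800). NTN4 encodes netrin-4, a laminin-binding basement membrane protein, and FKBP10 a chaperone of collagen. For TIMP2 the nearest gene reached r = 0.927 and for TIMP3 it was AARS, with r = 0.879. MEIS2 (r = 0.784) was nearest to TIMP1, TSKS (r = 0.828) to MMP19 and PRKX (r = 0.820) the second nearest to MMP9, whose counts are too few for a pattern to be read.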

How the data were processed

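RNA was sequenced from 16 fat libraries after ribosomal RNA depletion with a low-input kit, per the labels' protocols. Per the submitters' processing notes, the tools were FastQC 0.11.5, MultiQC 0.9, STAR 2.6.0c and featureCounts of Subread 1.6.1. The authors deposited 1 count per gene and library. The table's title calls the counts normalized, but 0 values were other than whole numbers and totals differed, so they were used as raw counts. Neither the build of the genome nor the annotation or strand setting is named; each is not given in the sources used here.

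Genes were filtered with filterByExpr (10 counts at the median depth, 15 in total), scaled by TMM and tested with the two-sided quasi-likelihood test of edgeR 4.0.16 in R 4.3.3, with Benjamini-Hochberg adjustment over all genes tested. The script was tested on simulated data before use. CPM were scaled over all 16 libraries, and RPKM divide them by the deposited length. Alternatives were DESeq2 1.42.0, other scalings and filters, limma 3.58.1 voom, replicate blocks and omitted libraries. One alternative, genes under 200 bases left out, was chosen after seeing the data. Numbers pair control libraries: same-number correlations of deviations from group means were 0.252, 0.477 and 0.419, each library matching its own number best. For BPA they were 0.202 for 918, which also matched its own number best, and −0.077 for 977, which did not.

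The members and lists were chosen with earlier results of these data known. All 10 members are described. Of each wider list, up to 4 called genes with the smallest p are named, and the 3 genes of highest correlation among those averaging at least 10 CPM.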

Additional observations from a re-analysis of the deposited data

Results flagged for a closer look

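Each of the 10 genes was examined for a library far from the others of its group, 40 groups of 4 libraries in all. In 4 of them, 1 library stood apart, where chance alone gives about 1 in 20. MMP19 was 17.15 CPM in subcutaneous control 931, against 5.83 to 6.27 CPM in the other controls. TIMP3 was 301.3 CPM in subcutaneous BPA library 918, against 250.4 to 258 CPM in the others. LOX was 69.88 CPM in visceral control 908, against 165 to 182 CPM. LOXL1 was 9.816 CPM in subcutaneous BPA library 941, the shallowest of the 16, against 13.9 to 14.3 CPM.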

How the results depend on the processing

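For each tested member in each comparison, direction and side of the threshold were kept in 866 alternative values, calls were gained in 8 and signs changed in 56; no call was lost among the values that could be fitted. The filter of 50 counts in 4 libraries left MMP9 out of every comparison, MMP19 and LOXL2 out of BPA in subcutaneous fat and LOXL2 out of the control depots. All sign changes were of members not called. In subcutaneous fat DESeq2 called 1 member and no filter 1, LOXL1; the number called without single libraries was 0 to 1. With the library total as a covariate, BPA against control in subcutaneous fat gave 0.27 for MMP2, 0.38 for TIMP2 and 0.34 for LOX (log2), and without genes under 200 bases 0.001 for MMP2. Omission of visceral BPA 918 and 977 gave 0.25 for MMP14 and −0.054 for LOXL2.

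The replicate block in edgeR called 2 members between depots in controls (TIMP3 0.15) and 5 in BPA animals (TIMP2 −0.57, LOXL2 0.29). In limma voom with the block, 1 member was called between control depots, and MMP19 was not. Of 14793 genes tested, voom called 2348 in controls and 2300 in BPA animals. The edgeR block called 2631 of 14456 and 892 of 13782. Limma voom with the replicate block called 4 in BPA animals, LOX being the added one (−1.14, adjusted p = 0.048), and gave opposite signs for BPA in subcutaneous fat for MMP2 (0.031) and MMP14 (0.10), for BPA in visceral fat for MMP9 (0.57), between control depots for MMP9 (−0.38) and TIMP3 (0.074), and for LOXL2 in the difference between depots (0.14). The block changed no other call.

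Leaving out each library in turn moved BPA in subcutaneous fat from −0.29 to 0.30 for MMP2, from −0.17 to 0.29 for MMP14 and from −0.50 to 0.005 for TIMP3. In visceral fat it moved MMP9 from −0.65 to 0.52, MMP14 from −0.24 to 0.087, TIMP1 from −0.13 to 0.10 and LOXL1 from −0.44 to 0.058. Between control depots 1 to 2 members were called, TIMP1 ran from −0.26 to 0.072 and TIMP3 from −0.22 to 0.29, and between BPA depots TIMP2 ran from −0.13 to 0.50. For the difference of BPA effects, MMP14 ran from −0.33 to 0.13, TIMP2 from −0.55 to 0.075, TIMP3 from −0.38 to 0.13 and LOXL2 from −0.23 to 0.25. The cause was not tested for any of these.

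Of all genes, BPA in subcutaneous fat called 469 with DESeq2, 173 with no filter, 54 with at least 50 counts in 4 libraries, 46 in a fit of 16 libraries, 13 with the library total as a covariate, 1 without genes under 200 bases and 0 without controls 902 and 924, against 96. Library totals alone moved the median of all genes by −0.15 (control depots) and −0.10 (BPA depots), so that 694 genes were called higher and 1500 lower in controls, and 489 and 865 in BPA animals, where TMM gave 1037 and 891, and 707 and 543. Upper-quartile factors gave 945 and 981, and 598 and 652. MMP2, MMP19 and LOXL1 kept their calls under each scaling.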

Other observations

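MMP2 was not evenly spread in subcutaneous fat. In controls 902 and 924 and BPA libraries 941 and 977 it was 517 to 550.2 CPM, and in controls 928 and 931 and BPA libraries 918 and 922 it was 1340 to 1551 CPM, with no library between, so that both treatments held 2 libraries at each level. MMP14 lay at 307, 313, 415 and 396 CPM in the first 4 libraries (902, 924, 941 and 977) and at 522, 735, 520 and 514 CPM in the others (928, 931, 918 and 922). In visceral fat MMP2 was 225 and 128 CPM in the libraries numbered 918 and 977, and 201, 327 and 259.8 CPM in those numbered 902, 924 and 928. The cause was not tested.

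In visceral BPA library 977, COL1A1 and FN1 stood far above the other libraries of the group. COL1A1 was 541, 887, 2433 and 252 CPM in visceral BPA libraries 910, 918, 977 and 984, and 316 to 647 CPM in visceral controls. FN1 was 267, 419.6, 2740 and 334 CPM in the same 4 libraries and 286 to 460.2 CPM in visceral controls. Without libraries 918 and 977, which stood apart in an earlier analysis, neither gene exceeded the visceral controls. LOX was 47.2 CPM in library 977, within the 37.8 to 131 CPM of its group.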
